A study of Mus musculus with 24 samples.

Results

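Mouse embryonic stem cells are pluripotent, and genes that mark the first differentiated lineages are mostly quiet in them until cells enter those lineages. The 36 genes described here are such markers: 7 of the primitive streak and mesoderm, 13 of the endoderm, 12 of the trophoblast and 4 of the neural lineage. They are listed by name, as the genes whose Ensembl identifiers carry these symbols in GENCODE mouse release M21. All 36 were found among the 55487 gene identifiers of the count tables.

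The cells are of the KH2 line, a mouse embryonic stem cell line, and every library, controls included, comes from cells with a DUX transgene that doxycycline (DOX) switches on. DUX is a homeodomain transcription factor that moves embryonic stem cells toward a state like that of the 2-cell embryo, and the title of the series places a related factor, DUXBL, at the exit from that state. Total RNA depleted of rRNA was sequenced in 24 libraries, which form 12 groups of 2. Each of 6 lines was sampled untreated and with DOX given for 16 h: WT, DUXBL-KO, TRIM24-KO, TRIM33-KO and a pair of WT lines called WT pLV2 line 1 and WT pLV2 line 2. WT and DUXBL-KO form one set of 8 libraries, and the 4 lines with pLV2 in their titles form another of 16. The meaning of pLV2 is not given in the labels. They also leave unsaid whether a line is 1 clone, which of the WT lines was grown alongside which knockout, or which cultures grew on gelatin and which on mouse embryonic fibroblast feeders. Nothing in the labels says that replicates are separate cultures, so p-values measure only the spread between libraries.

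In the embryo, Nodal and Wnt signals set up the primitive streak, from which mesoderm and definitive endoderm arise under T, Eomes, Mixl1 and Mesp1. Primitive endoderm, a separate lineage of the blastocyst, is set by Gata6, Gata4, Sox17 and Sox7 and lays down a basement membrane of laminin and type IV collagen. Trophoblast is set by Tead4, Cdx2, Gata3, Elf5 and Tfap2c and makes simple epithelial keratins, while Sox1, Sox3, Pax6 and nestin mark the neural lineage. Several of these genes, among them Tfap2c, Tead4, Sparc and Sox3, are also expressed in undifferentiated embryonic stem cells.

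Gene counts per library lay between 11784696 and 19136869. CT010467.1, one annotated gene, took 30.43% of gene counts in TRIM24-KO with DOX replicate 2 and 12.85% in TRIM33-KO with DOX replicate 2, against 0.08705% to 1.297% in the other 22 libraries. Trim33 stood at 20.3 and 21.4 CPM (counts scaled by effective library size, on the usual CPM scale) in TRIM33-KO without DOX, against 115 to 140 CPM in the WT pLV2 libraries without DOX. Trim24 (123 and 137 CPM in TRIM24-KO without DOX, against 94.5 to 196) and Duxbl1 (0.321 and 0.862 CPM in DUXBL-KO without DOX, against 0.364 and 1.86 in WT) were not set apart from WT, so these lines are called labelled TRIM24-KO and labelled DUXBL-KO, and a direction drawn from them rests on the label. In 8 pLV2 libraries the treatment tag goes against the title, and titles were followed. Dux, annotated as Duxf3, had 0 to 2 counts in every library titled without DOX and 20 to 110 in every library titled with DOX. All 18 embryonic stem cell markers were detected in every group, with sums from 5533 to 8373 CPM. The 18 markers of the 2-cell-like state were called higher with DOX in all 6 lines, with sums of 0.5466 to 12.49 CPM without DOX and 1776 to 17900 CPM with DOX. These markers include Duxf3, the Dux gene itself. The 19 feeder fibroblast markers summed to 38.87 to 74.5 CPM, and 3 to 7 of them were at 0 in both libraries of a group. Of the 10 fibroblast markers tested in the pLV2 set, 2 or 3 rose and at most 1 fell with DOX per line. In bulk RNA, fewer cells of a type and less RNA per cell cannot be told apart.

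Promoter sequences were read from RefSeq (GRCm38.p6) for 25 of the 36 genes, which have 31 annotated promoters of 250 bases upstream of a start. A motif associated with Dux, TGATT and AATCA with any 1 base between them, was searched on both strands. It is in 0 of the 31 promoters and in 0.0304% of all 32851 promoters. Its arms, TGATT and AATCA, which also lie within the full motif, are in 38.7% of the members' promoters (12 of 31, of 11 genes) and in 33.7% of all promoters. Absence of the letters says nothing of binding by the factor. Nes is shown because it rose with DOX in labelled TRIM24-KO, and Elf3 and Eomes, chosen after their values were seen, because they fell. Capitals mark TGATT and AATCA. The windows are chr3:87970843-87971092 (plus strand) for Nes, chr1:135258473-135258722 (minus strand) for Elf3 and chr9:118477939-118478188 (plus strand) for Eomes, each printed 5′ to 3′ on the strand of its gene.
Nes: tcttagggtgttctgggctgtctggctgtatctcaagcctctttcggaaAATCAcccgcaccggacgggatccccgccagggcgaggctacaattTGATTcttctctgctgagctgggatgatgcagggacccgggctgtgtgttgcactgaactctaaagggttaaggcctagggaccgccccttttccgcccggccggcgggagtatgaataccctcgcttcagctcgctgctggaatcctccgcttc
Elf3: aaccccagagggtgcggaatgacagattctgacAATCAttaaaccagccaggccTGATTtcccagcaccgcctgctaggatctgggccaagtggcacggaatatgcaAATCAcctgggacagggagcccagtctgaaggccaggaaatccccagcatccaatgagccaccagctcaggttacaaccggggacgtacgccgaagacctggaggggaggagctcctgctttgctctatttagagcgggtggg
Eomes: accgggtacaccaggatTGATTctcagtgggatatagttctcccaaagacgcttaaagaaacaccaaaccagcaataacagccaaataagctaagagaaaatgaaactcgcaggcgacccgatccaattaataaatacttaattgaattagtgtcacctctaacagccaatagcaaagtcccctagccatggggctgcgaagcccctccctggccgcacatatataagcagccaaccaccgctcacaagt
The Elf3 window holds 3 arms, the Nes window 2 and the Eomes window 1.

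The members spanned a wide range of expression, and many were close to absent. Per length, the highest was Sparc, a matrix glycoprotein, at a median of 49.3 RPKM over the 24 libraries (36.1 to 72.2), followed by the laminin chain Lama1 at 17.9 RPKM (11.9 to 29.9), the epithelial ETS factor Elf3 at 17.4 (14.3 to 32.7) and the laminin chain Lamb1 at 13.2 (9.5 to 27.5). Tfap2c followed at 12.6 RPKM and Tead4 at 8.29. In 11 members the highest group mean stayed under 1 CPM, and in 11 it reached 20 CPM. The filter on low counts left 26 members for testing in the WT and DUXBL-KO set and 27 in the pLV2 set, 24 of them in both. Gsc, Fgf8, Wnt3, Mesp1, Cdx2, Foxa2 and Afp were tested in neither.

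**Figure D1:**
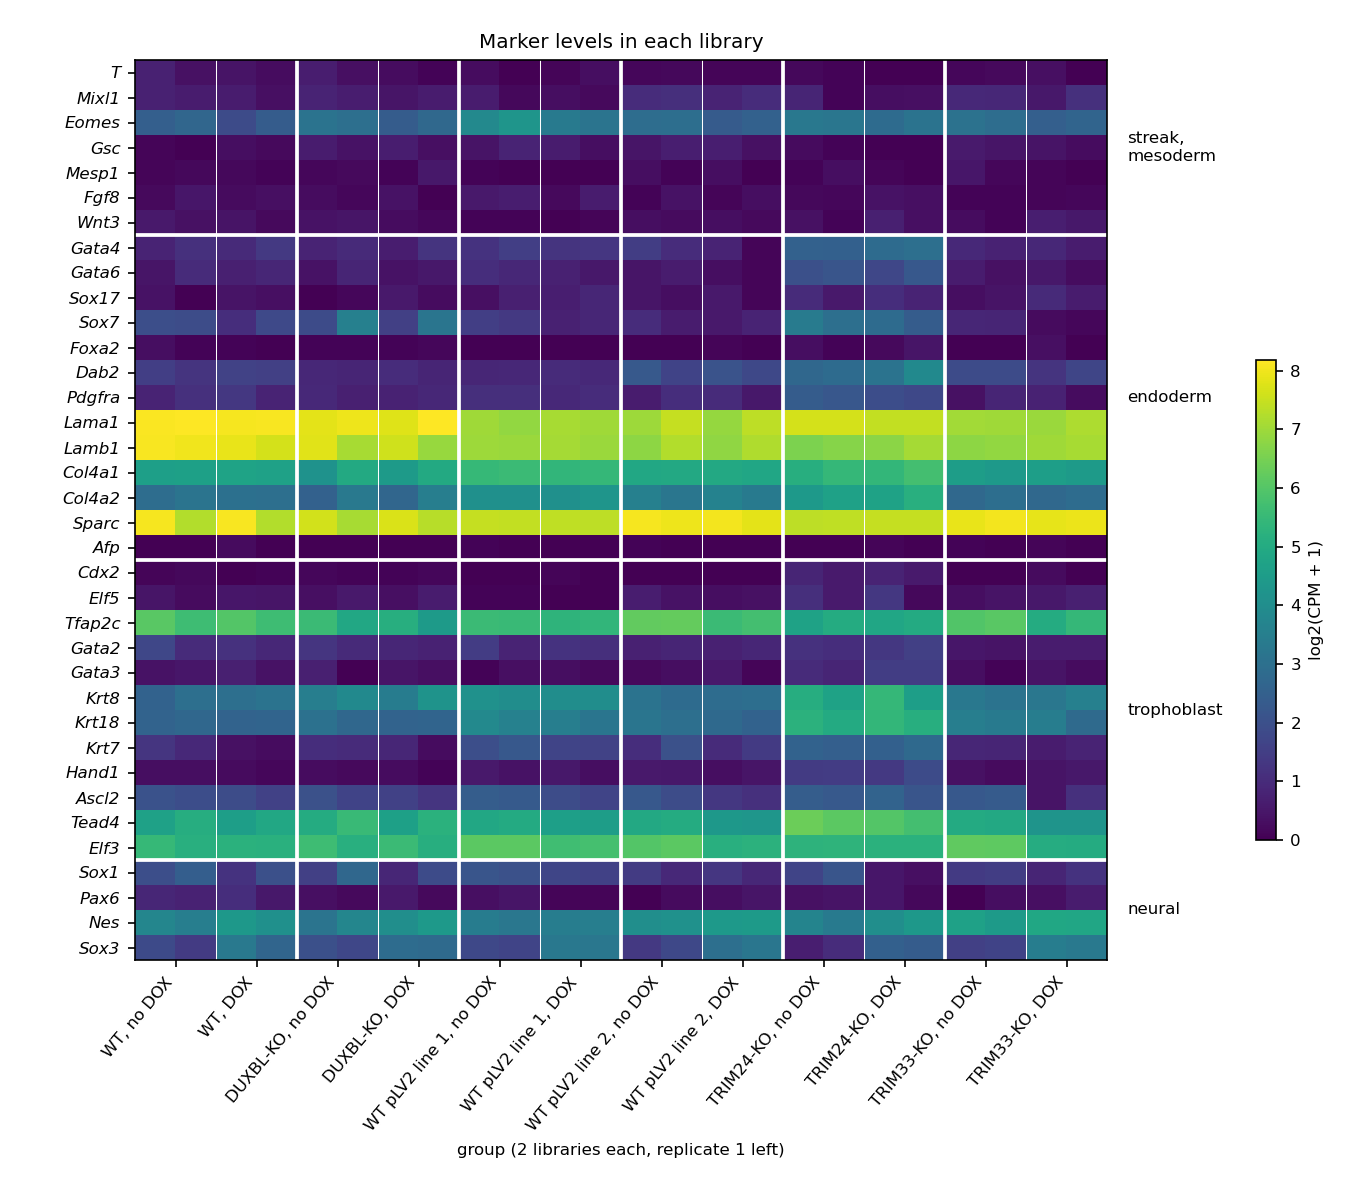
Level of each of the 36 members, as log2(CPM + 1) on the colour scale, in each of the 24 libraries (columns, 12 groups of 2, replicate 1 on the left). Sparc, Lama1 and Lamb1 are bright in every library, and most streak, mesoderm and early trophoblast genes are dark in every library.

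The response of the markers to DOX was compared within each of the 6 lines. Sox3 rose in 5 of them and was the only member called higher in more than 1 line, while 8 members fell in at least 1 pLV2 line, 4 of them trophoblast genes. In WT 1 member was called higher and 0 lower of 26 tested, against 2.82% and 0.105% of all genes. In labelled DUXBL-KO edgeR called 0 members, against 4.91% of all genes; 2 members had an unadjusted p under 0.05, and DESeq2 called 1. In the pLV2 set 27 members were tested. There WT pLV2 line 1 had 1 member higher and 3 lower (all genes 10% and 6.25%), and line 2 had 1 higher and 6 lower (12.7% and 14%). Labelled TRIM24-KO had 2 higher and 2 lower (11.5% and 4.94%), and TRIM33-KO had 1 higher and 6 lower (16.5% and 20.1%). In percent of the members tested, the calls were 3.7% higher and 11.1% lower in line 1, 3.7% and 22.2% in line 2, 7.41% and 7.41% in labelled TRIM24-KO, and 3.7% and 22.2% in TRIM33-KO, and how these differ from the shares of all genes was not tested. The shares of all genes depended on the scaling. With median-of-ratios scaling 14.5% of all genes were higher and 9.81% lower in line 2, where 2 members were higher and 6 lower, and 19.4% were higher and 14.8% lower in TRIM33-KO, where 2 members were higher and 5 lower. With replicate 2 with DOX left out, 4 members were called in labelled TRIM24-KO (10.2% of all genes) and 5 in TRIM33-KO (26.9%). With replicate 1 with DOX left out, 7 were called in labelled TRIM24-KO (14% of all genes). The median log2 fold change of the tested members was -0.21, -0.28, 0.15 and -0.18 in those 4 lines, beside -0.03, -0.07, -0.003 and -0.09 for all genes. The common coefficient of variation between libraries was 17.8% in the WT and DUXBL-KO set and 8.55% in the pLV2 set.

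**Figure D2:**
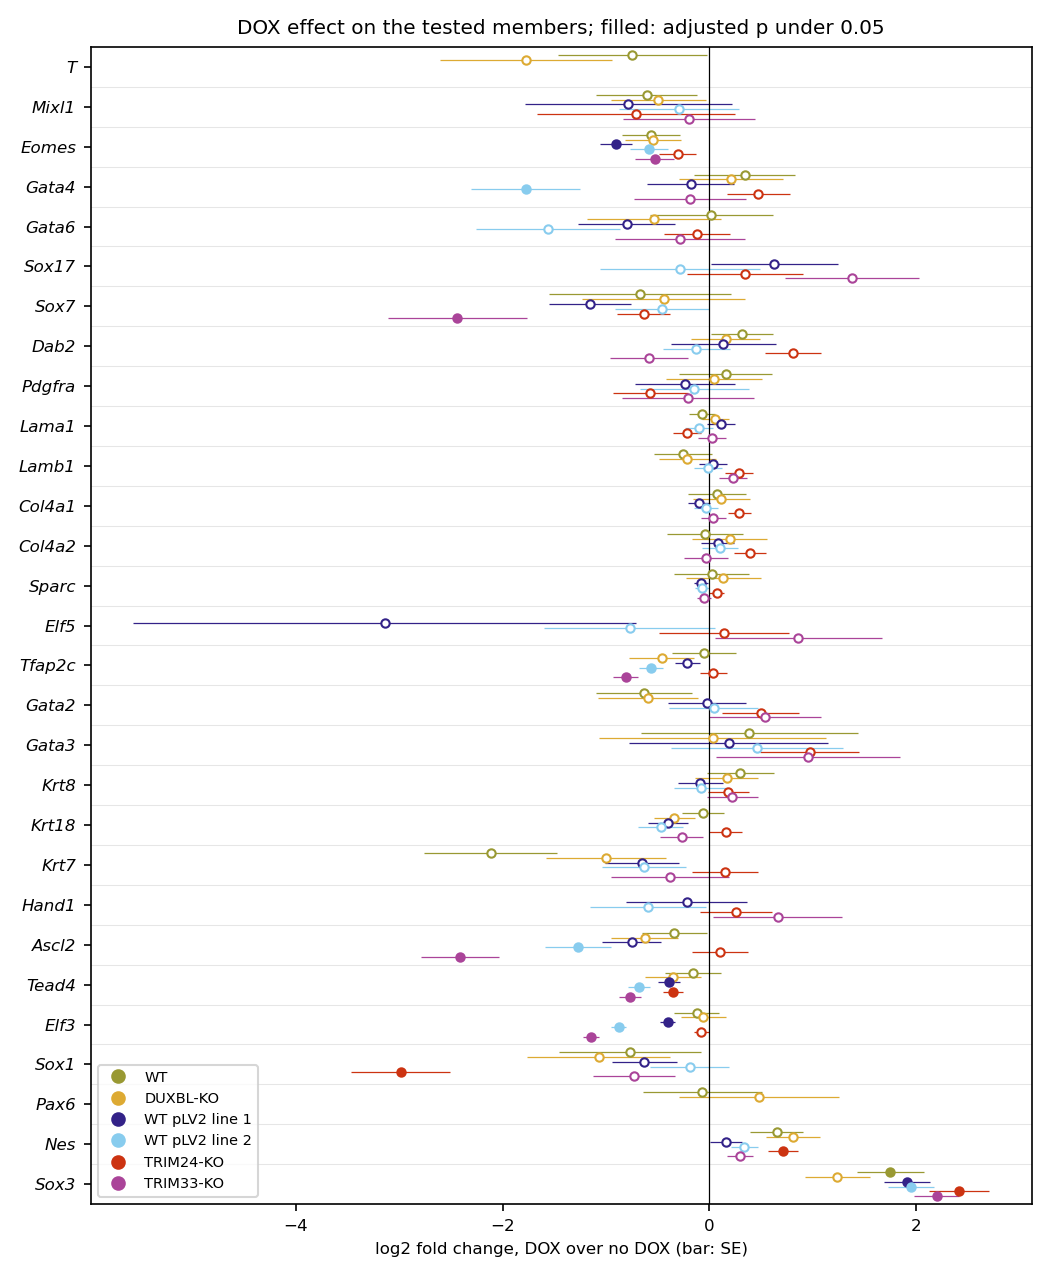
Log2 fold change of each tested member with DOX over without DOX (horizontal axis, bars are SE) in each of the 6 lines (colours), with filled points for an adjusted p under 0.05. Sox3 lies to the right of 0 in all 6 lines, and the filled points of Elf3, Tead4, Tfap2c, Eomes and Ascl2 lie to the left.

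Among the neural members, both DOX libraries lay above both libraries without DOX for Sox3 in every line. Sox3 (chrX:60891366-60893430, minus strand, GRCm38) encodes an SRY-related factor of neural progenitors and epiblast. In WT it stood at 2.56 and 1.7 CPM without DOX and at 8.88 and 5.42 CPM with DOX. In labelled DUXBL-KO it stood at 2.96 and 2.35 CPM without and at 6.51 and 6.06 CPM with DOX. In WT pLV2 line 1 the values were 2.4 and 2.19 CPM without and 8.75 and 8.55 CPM with DOX. None of these groups overlapped. WT pLV2 line 2 had 1.55 and 2.45 CPM without and 6.87 and 8.35 CPM with DOX. Labelled TRIM24-KO had 0.601 and 1.04 CPM without and 4.64 and 4.19 CPM with DOX, and was the lowest line in both states. TRIM33-KO went from 1.94 and 2.16 CPM to 9.96 and 8.89 CPM. The log2 fold change was 1.91 ± 0.22 (SE, n = 2 libraries a group; edgeR adjusted p = 6.66e-06) in line 1, 1.95 ± 0.22 (3.97e-06) in line 2, 2.42 ± 0.29 (8.76e-06) in labelled TRIM24-KO and 2.2 ± 0.22 (5.22e-07) in TRIM33-KO. These 4 calls held with every library left out in turn. In WT Sox3 rose by 1.75 ± 0.33 (adjusted p = 0.0379), but the call was lost when either WT library without DOX was left out (0.116 for replicate 1, 0.259 for replicate 2) or replicate 1 of WT with DOX was (0.166), and with only the compared groups (0.126). In labelled DUXBL-KO the value was 1.24 ± 0.32 with an adjusted p of 0.0885, and 0.0408 by DESeq2. The difference in the Sox3 response between labelled DUXBL-KO and WT was not called by edgeR, nor was it for either TRIM knockout against the WT pLV2 lines.

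Nes encodes nestin, an intermediate filament protein of neural progenitors. It rose in labelled TRIM24-KO, where it stood at 11.8 and 9.4 CPM without and 15.4 and 19.8 CPM with DOX, a log2 fold change of 0.71 ± 0.14 (adjusted p = 0.00198). The adjusted p was 0.0516 without labelled TRIM24-KO without DOX replicate 2. Nes was not called in the other 5 lines, yet both DOX libraries lay above both libraries without DOX in each of the 6 lines. Its log2 fold change was 0.65 in WT (adjusted p = 0.416), 0.81 in labelled DUXBL-KO (0.191), 0.16 in line 1 (0.537), 0.34 in line 2 (0.0681) and 0.30 in TRIM33-KO (0.0785). The difference in the Nes response between labelled TRIM24-KO and the WT pLV2 lines was 0.46 and was not called (0.438). Sox1, a marker of the early neural plate, fell in labelled TRIM24-KO. Its 96 counts without DOX (2.22 and 3.42 CPM) stood against 7 counts with DOX (0.414 and 0.254 CPM), an 8.07-fold difference with a 95% counting interval of 3.77 to 20.6. The fitted log2 change was -2.98 ± 0.48 (adjusted p = 0.000211). The difference in the Sox1 response between labelled TRIM24-KO and the WT pLV2 lines was -2.58 and was not called (0.0627; 0.0357 without WT pLV2 line 2 without DOX replicate 1 and 0.000719 with no filter on low counts). In the other 3 pLV2 lines Sox1 was not called, and in TRIM33-KO its values of 1.64 and 1.78 CPM without and 0.8 and 1.3 CPM with DOX gave an adjusted p of 0.169. Sox1 shares its strand with the overlapping transcript Sox1ot. Pax6, an eye and forebrain factor, was at most 1.08 CPM in any library. It was tested in the WT and DUXBL-KO set only and was not called there.

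Among the trophoblast members, Elf3, Tead4, Tfap2c and Ascl2 fell with DOX. Elf3 (chr1:135253575-135258568, minus strand) encodes the epithelial ETS factor whose promoter is printed above. It stood at 68.8 and 68 CPM without and 49.9 and 53.6 CPM with DOX in WT pLV2 line 1. It stood at 62.5 and 69.4 CPM without and 34.6 and 37.1 CPM with DOX in line 2. In TRIM33-KO it stood at 72.6 and 70.1 CPM without and 32.7 and 31.8 CPM with DOX. In each of these lines both DOX libraries lay below both libraries without DOX. Elf3 fell by 0.40 ± 0.07 on the log2 scale in line 1 (adjusted p = 0.000629), by 0.88 ± 0.07 in line 2 (5.82e-08) and by 1.14 ± 0.07 in TRIM33-KO (1.82e-09). Labelled TRIM24-KO had 38.1 and 38.9 CPM without and 36.8 and 36.3 CPM with DOX, a log2 fold change of -0.08 that was not called. In WT the values were 43.5 and 35.2 CPM without and 36.5 and 35.7 CPM with DOX, and in labelled DUXBL-KO 49.3 and 35 against 47 and 34.2 CPM; the groups overlapped in both lines and neither was called. The Elf3 response of labelled TRIM24-KO was 0.56 ± 0.09 above the mean of both WT pLV2 lines on the log2 scale (adjusted p = 0.0116), and that of TRIM33-KO was 0.50 ± 0.09 below it (-0.50, adjusted p = 0.0154). Elf3 was the only member called in these tests of a difference in response, of 27 tested, against 0.437% and 0.575% of all genes. Against line 1 alone the difference of labelled TRIM24-KO was 0.33 (adjusted p = 0.413), and against line 2 alone that of TRIM33-KO was -0.27 (adjusted p = 1). Both calls were also lost on leaving out any 1 library of the knockout concerned (adjusted p from 0.0553 to 0.138), and that of labelled TRIM24-KO without either library of WT pLV2 line 1 without DOX (0.101 and 0.0852). The difference in response between line 2 and line 1, which edgeR called for 0 members (0.238% of all genes; 2 members at an unadjusted p under 0.05; DESeq2 0), was -0.48 for Elf3 with an adjusted p of 0.0766.

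**Figure D3:**
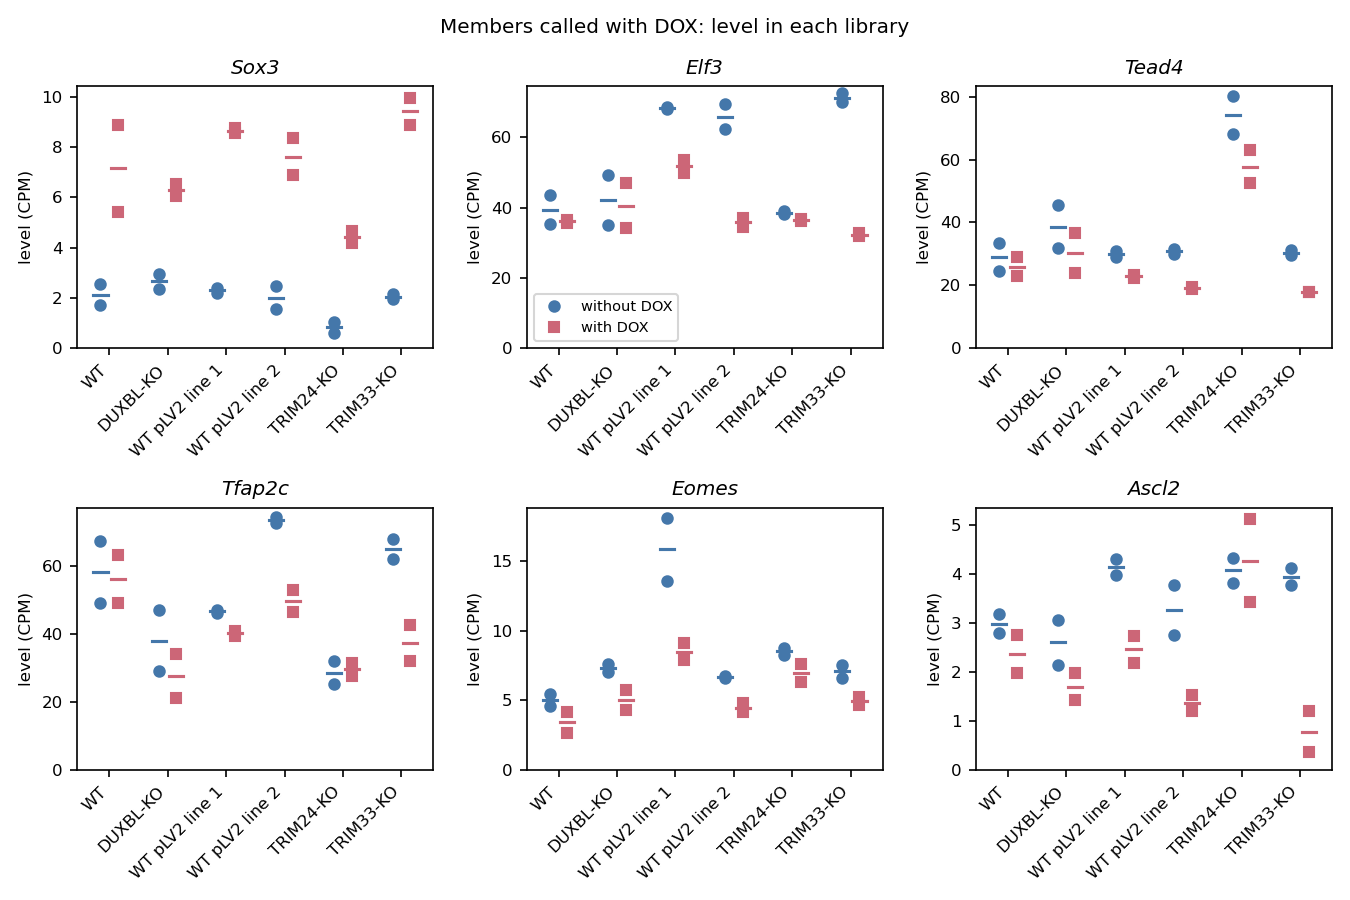
Level in CPM (vertical axes, from 0) of Sox3, Elf3, Tead4, Tfap2c, Eomes and Ascl2 in each library of the 6 lines, circles without DOX and squares with DOX, with a bar at each mean. Squares lie above circles for Sox3 in every line and below them for Elf3 in WT pLV2 line 1, line 2 and TRIM33-KO.

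Tead4 (chr6:128224288-128300823, minus strand) encodes the TEA-domain factor that acts upstream of Cdx2 in the trophectoderm. In WT pLV2 line 1 it stood at 29 and 31 CPM without and 23.4 and 22.3 CPM with DOX. In line 2 it stood at 30 and 31.5 CPM without and 19.5 and 18.9 CPM with DOX, and in TRIM33-KO at 31.1 and 29.6 CPM without and 18 and 17.7 CPM with DOX. The groups were apart in all 3 lines. Labelled TRIM24-KO, which started higher, had 80.3 and 68.1 CPM without and 62.9 and 52.7 CPM with DOX. Tead4 fell by 0.68 ± 0.10 on the log2 scale in line 2 (adjusted p = 0.000112), by 0.76 ± 0.11 in TRIM33-KO (3.42e-05), by 0.39 ± 0.10 in line 1 (0.0157) and by 0.35 ± 0.09 in labelled TRIM24-KO (0.0157). The call in line 1 was lost on leaving out any 1 of its libraries (adjusted p from 0.0584 to 0.212). The call in labelled TRIM24-KO was lost without its replicate 1 without DOX (0.213), without its replicate 2 with DOX (0.2) and with only the compared groups (0.0772). In WT and labelled DUXBL-KO the log2 fold change of Tead4 was -0.16 and -0.35, and neither was called.

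Tfap2c (chr2:172549593-172558622, plus strand) encodes the AP-2 gamma factor of trophoblast and germ cells. It stood at 72.7 and 74.5 CPM without and 46.4 and 52.9 CPM with DOX in WT pLV2 line 2. It stood at 62 and 67.8 CPM without and 31.9 and 42.6 CPM with DOX in TRIM33-KO. The values were apart in both lines, and Tfap2c fell by 0.57 ± 0.12 on the log2 scale in line 2 (adjusted p = 0.0015) and by 0.81 ± 0.12 in TRIM33-KO (5.95e-05). In line 1 it had 47 and 46.1 CPM without and 39.3 and 40.9 CPM with DOX, and in labelled TRIM24-KO 25.1 and 31.9 against 27.6 and 31.4 CPM; neither was called. Ascl2 (chr7:142966829-142969264, minus strand) encodes a basic helix-loop-helix factor that the placental spongiotrophoblast needs. It stood at 3.78 and 2.76 CPM without and 1.53 and 1.19 CPM with DOX in line 2, and at 3.78 and 4.13 CPM without and 0.356 and 1.19 CPM with DOX in TRIM33-KO. Ascl2 fell by 1.27 ± 0.32 in line 2 (adjusted p = 0.00691) and by 2.41 ± 0.38 in TRIM33-KO (8.73e-05) on the log2 scale. The call in line 2 was lost without its replicate 1 without DOX (0.0824) and without its replicate 2 with DOX (0.0607). In labelled TRIM24-KO the values of Ascl2 overlapped, with 4.33 and 3.83 CPM without and 5.13 and 3.43 CPM with DOX.

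The other 8 trophoblast members were not called with DOX in any line where they were tested. Cdx2 was tested in no line, and Elf5 and Hand1 in the pLV2 lines only. The keratins Krt8 and Krt18, partners in the filaments of simple epithelia, stood at 4.89 to 42.4 CPM and 5 to 42.1 CPM over all libraries. Krt7, a further simple keratin, reached 5.97 CPM, and the GATA factors Gata2 and Gata3 reached 2.33 and 1.82 CPM. Hand1, a factor of trophoblast giant cells, reached 2.67 CPM and Elf5, a factor of trophoblast stem cells, 1.49 CPM. Cdx2, the defining factor of the trophectoderm, was 0.781 CPM at most and at 0 in 11 of 24 libraries. The sums of the 12 trophoblast members were 187.8 to 196.1 CPM without and 117 to 124.9 CPM with DOX in WT pLV2 line 2, and 190.4 to 190.5 CPM without and 103.8 to 112.8 CPM with DOX in TRIM33-KO. In WT pLV2 line 1 they were 180.6 to 184.6 CPM without and 145.2 to 145.7 CPM with DOX. In labelled TRIM24-KO they were 208.9 to 228.9 CPM without and 193.7 to 228.7 CPM with DOX, in WT 136.1 to 153.1 and 130.5 to 140.3 CPM, and in labelled DUXBL-KO 133.6 to 152.6 and 117.9 to 124.3 CPM. Elf3, Tfap2c and Tead4, described above, made up most of each sum. The sums of the 2-cell-like markers with DOX were 9007 to 12410 CPM in line 2 and 16580 to 17900 CPM in TRIM33-KO, against 3471 to 4197 CPM in line 1 and 1776 to 5137 CPM over line 1 and the other 3 lines, and their part in these results was not tested. The sums of embryonic stem cell markers were 6325 to 6488 CPM without and 5546 to 5627 CPM with DOX in line 2, and 6454 to 6593 CPM without and 5533 to 5564 CPM with DOX in TRIM33-KO, and 10 of those 18 markers fell and 1 rose in each of these lines. In labelled TRIM24-KO 7 of the 18 fell and 1 rose, with sums of 7543 to 7596 CPM without and 6837 to 7154 CPM with DOX, and in line 1 the number was 3 each way. Over all genes the shares called lower were 14%, 20.1%, 4.94% and 6.25% in line 2, TRIM33-KO, labelled TRIM24-KO and line 1.

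Among the streak and mesoderm members Eomes fell with DOX in 3 lines. Eomes (chr9:118478212-118486132, plus strand) encodes a T-box factor of the streak, definitive endoderm and trophoblast. It stood at 13.6 and 18.1 CPM without and 9.13 and 7.87 CPM with DOX in WT pLV2 line 1, at 6.59 and 6.74 CPM without and 4.12 and 4.77 CPM with DOX in line 2, and at 7.5 and 6.63 CPM without and 4.62 and 5.2 CPM with DOX in TRIM33-KO. The DOX libraries were the lower ones in all 3 lines, and also in labelled TRIM24-KO (8.77 and 8.24 against 6.29 and 7.63 CPM), WT (4.58 and 5.47 against 2.64 and 4.16 CPM) and labelled DUXBL-KO (7.59 and 7 against 4.27 and 5.74 CPM), where it was not called. Eomes fell by 0.90 ± 0.16 on the log2 scale in line 1 (adjusted p = 0.000584), by 0.58 ± 0.18 in line 2 (0.0267) and by 0.53 ± 0.19 in TRIM33-KO (0.0354). In line 2 the call was lost without replicate 1 without DOX (0.0897), replicate 2 without DOX (0.106) or replicate 1 with DOX (0.181), by DESeq2 (0.125) and with only the compared groups fitted (0.108). In TRIM33-KO it was lost on leaving out any 1 library (0.054 to 0.223), with median-of-ratios scaling (0.0692), by DESeq2 (0.171) and with only the compared groups (0.0922). The other 6 streak and mesoderm members were low throughout. T (brachyury), which defines the streak, was 0.698 CPM at most. Mixl1, a homeodomain factor of the streak, reached 1.19 CPM, Gsc 0.772, Mesp1 0.437, Fgf8 0.579 and Wnt3 0.663 CPM. Mixl1 was not called in any comparison, nor was T, which was tested in the WT and DUXBL-KO set only. Gsc, Mesp1, Fgf8 and Wnt3 were not tested.

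Among the 13 endoderm members 2 were called with DOX, each in 1 line. Gata4, a GATA factor of primitive endoderm, fell in WT pLV2 line 2, where 54 counts (1.79 and 1.04 CPM) stood against 11 (0.764 and 0.0746 CPM), a 3.51-fold difference with a 95% counting interval of 1.82 to 7.45. Its fitted log2 change was -1.78 ± 0.53 (adjusted p = 0.0192), and the call was lost without line 2 without DOX replicate 1 (0.184), without line 2 with DOX replicate 2 (0.194) and with only the compared groups (0.14). The value was -4.13 without line 2 with DOX replicate 1. Sox7, an SRY-related factor of primitive endoderm, fell in TRIM33-KO, where 34 counts (0.845 and 0.816 CPM) stood against 3 (0.178 and 0.108 CPM), a 5.67-fold difference with a 95% counting interval of 1.78 to 28.9. The adjusted p of Sox7 was 0.00933, and 0.0569 and 0.0802 without TRIM33-KO with DOX replicate 1 or 2. The basement membrane genes were among the most abundant members. Lama1 stood at 127 and 176 CPM without and 118 and 163 CPM with DOX in line 2 and at 131 and 130 CPM without and 122 and 143 CPM with DOX in TRIM33-KO. Sparc stood at 267 and 250 CPM without and 263 and 231 CPM with DOX in line 2. Neither gene nor Lamb1, Col4a1 or Col4a2 was called with DOX in any line. Sox17 reached 1.08 CPM, Foxa2, a factor of definitive endoderm, 0.381 CPM, and Afp, a protein of visceral endoderm and fetal liver, 0.18 CPM.

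Without DOX, 7 endoderm and 4 trophoblast members were higher in labelled TRIM24-KO than in the mean of both WT pLV2 lines, and 5 members were lower, 2 of them endoderm, 2 trophoblast and 1 neural. These counts are over the 24 members that met the filter on low counts without the labelled TRIM24-KO libraries, and of the 17731 genes that did so 20.3% were higher and 23% lower. Of the 27 members that passed the filter, the trophoblast members Elf5, Gata3 and Hand1 met it only with the labelled TRIM24-KO libraries and could be tested only because they are high there, so their values are given with no test. Against each WT line on its own, 10 of the 24 were higher against both (10.8% of those genes were), 3 lower against both (10.8%), and 0 in opposite directions. The WT lines serve as reference for both knockouts, so the results for the knockouts share their controls. The feeder fibroblast sums were 38.87 to 41.83 CPM in labelled TRIM24-KO, 42.02 to 43.36 in WT pLV2 line 1 and 62.51 to 68.77 in line 2, all without DOX. Of the 10 fibroblast markers tested, 1 was higher and 4 lower in labelled TRIM24-KO, and of the 18 embryonic stem cell markers 6 were higher and 8 lower.

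**Figure D4:**
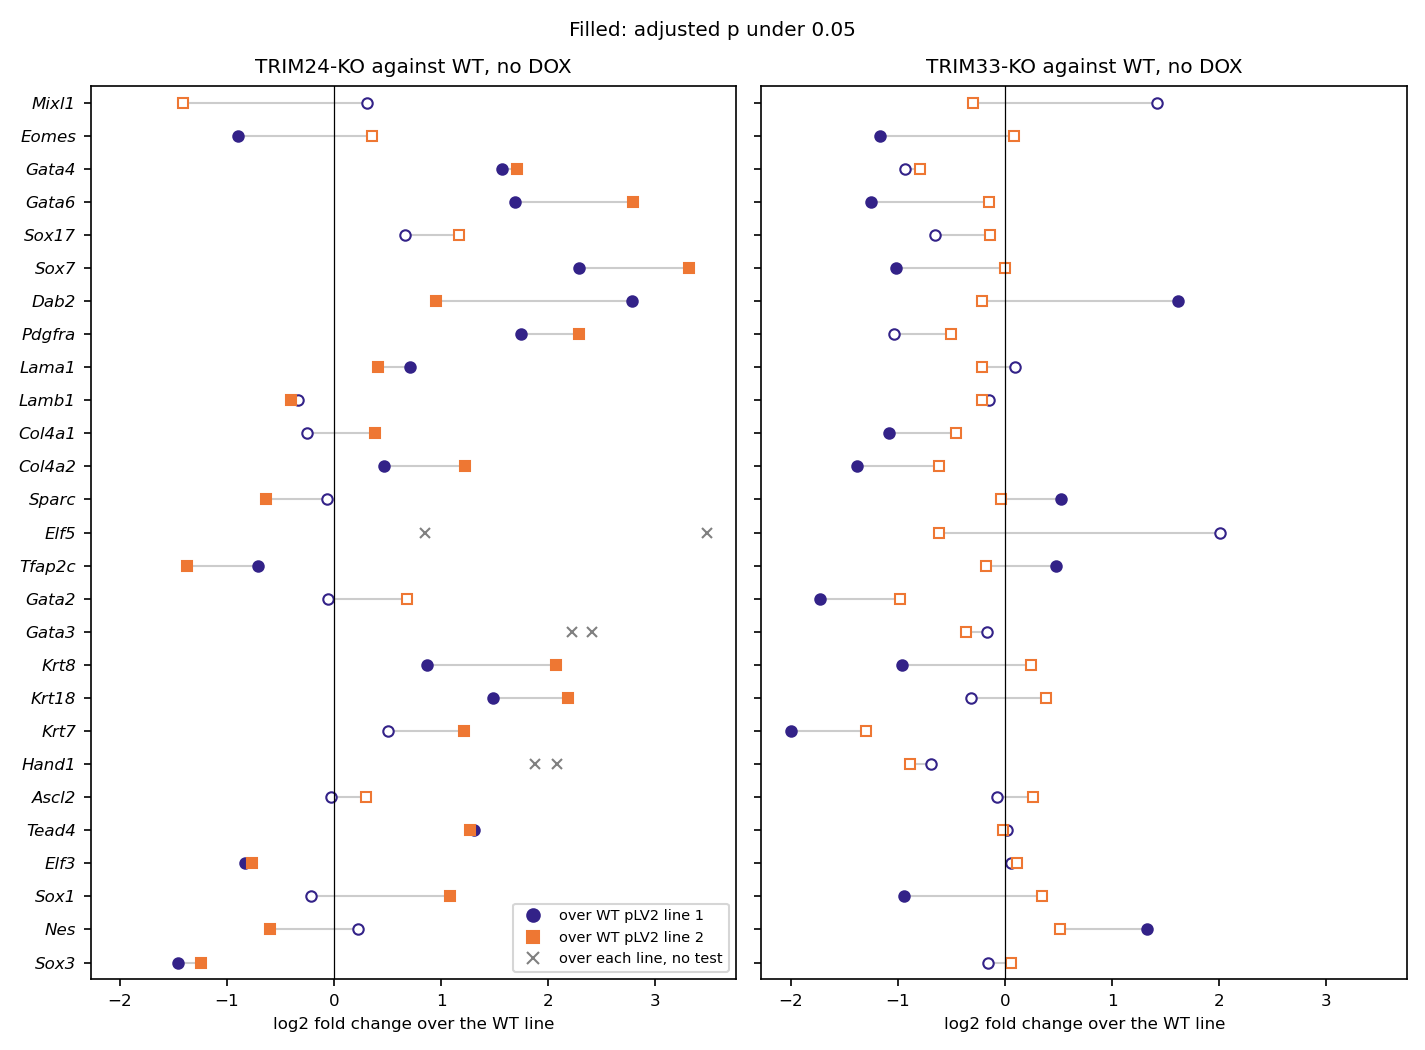
Log2 difference without DOX (horizontal axes) of the libraries labelled TRIM24-KO (left) and of TRIM33-KO (right) over WT pLV2 line 1 (circles) and line 2 (squares) for each tested member, filled where the adjusted p is under 0.05. Crosses on the left mark Elf5, Gata3 and Hand1, which are shown with no test. On the left 10 members are filled on the right side of 0 against both lines, and on the right no square is filled.

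Of the 4 primitive endoderm factors Gata6, Gata4, Sox7 and Sox17, the first 3 were higher in labelled TRIM24-KO and Sox17 was not called. Gata6, the GATA factor that starts the primitive endoderm program, stood at 3 and 3.48 CPM there, against 1.1 and 0.901 CPM in WT pLV2 line 1 and 0.388 and 0.552 CPM in line 2. Gata4 stood at 4.81 and 4.7 CPM against 1.3 and 1.87, and 1.79 and 1.04 CPM. Sox7 stood at 9.67 and 6.96 CPM against 1.85 and 1.54, and 1.07 and 0.552 CPM. None of these values overlapped with those of WT. The log2 difference was 2.24 ± 0.30 for Gata6 (adjusted p = 1.3e-05), 1.64 ± 0.28 for Gata4 (0.000167) and 2.80 ± 0.23 for Sox7 (6.2e-08). Dab2, an endocytic adaptor of visceral endoderm, stood at 5.71 and 6.27 CPM against 0.823 and 0.901, and 3.93 and 2.15 CPM, a log2 difference of 1.87 ± 0.27 (3.1e-05). Pdgfra, the receptor that marks primitive endoderm, stood at 4.21 and 3.66 CPM against 1.17 and 1.16, and 0.533 and 1.1 CPM, a log2 difference of 2.02 ± 0.32 (7.08e-05). Sox17 (0.464 and 1.02 CPM) had a log2 difference of 0.92 (adjusted p = 0.156), and Foxa2 (0.058 and 0.24 CPM) and Afp (0 in both libraries) were near or at 0.

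The matrix genes did not share a direction. Lama1 stood at 199 and 202 CPM in labelled TRIM24-KO, against 130 and 115 CPM in line 1 and 127 and 176 CPM in line 2, and was higher by a log2 difference of 0.56 ± 0.11 (adjusted p = 0.000815). Col4a2, the alpha 2 chain of type IV collagen, stood at 20.4 and 24.6 CPM against 16.4 and 16.2, and 10.9 and 8.27 CPM, a log2 difference of 0.85 ± 0.13 (7.08e-05). Col4a1, the alpha 1 chain, was not called against the mean of both lines, with 33.9 and 42.3 CPM against 44.2 and 46.3, and 29.1 and 29.6 CPM. Against line 2 alone Col4a1 was higher (0.38, adjusted p = 0.00979), and against line 1 alone the value was -0.25 (0.0927). Col4a1 and Col4a2 overlap each other on opposite strands at their starts. Sparc was lower (log2 difference -0.35 ± 0.06, adjusted p = 0.000162) but not against line 1 alone (-0.07, 0.471). Lamb1 was also called lower (-0.37 ± 0.12, 0.0181), with an adjusted p of 0.0637 against line 1 alone. The Lamb1 call was lost without either labelled TRIM24-KO library (0.161 and 0.0702), either line 1 library (0.0723 and 0.0554) or line 2 replicate 2 (0.126), and by DESeq2 (0.0707).

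In labelled TRIM24-KO without DOX the trophoblast members also split. Tead4 stood at 80.3 and 68.1 CPM, against 29 and 31 CPM in line 1 and 30 and 31.5 CPM in line 2, a log2 difference of 1.29 ± 0.08 (adjusted p = 1.7e-09). Krt18 stood at 37 and 31.4 CPM against 13.4 and 11.1, and 8.14 and 6.86 CPM, a log2 difference of 1.83 ± 0.14 (2.53e-08). Krt8 stood at 33.3 and 25.5 CPM against 16.7 and 15.3, and 7.71 and 6.19 CPM, a log2 difference of 1.47 ± 0.17 (3.42e-06). The labelled TRIM24-KO libraries were the highest for all 3 genes. Hand1 (1.68 and 1.74 CPM against 0.322 to 0.485) and Gata3 (1.02 and 0.812 CPM against 0.0686 to 0.257) stood above the WT pLV2 libraries, with no test for the reason given above. Cdx2 was not tested, with 0.781 and 0.522 CPM in labelled TRIM24-KO and 0 in all 4 WT pLV2 libraries without DOX. Krt7 (4.93 and 4.58 CPM) was called higher against the mean of both lines (adjusted p = 0.0169), and Elf5, also given with no test, stood at 1.14 and 0.522 CPM. Krt7 was not called against line 1 alone (0.237) or without labelled TRIM24-KO replicate 1 (0.104).

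The members lower in labelled TRIM24-KO against each WT line were Elf3, Tfap2c and Sox3. Elf3 stood at 38.1 and 38.9 CPM, against 68.8 and 68 CPM in line 1 and 62.5 and 69.4 CPM in line 2, a log2 difference of -0.80 ± 0.06 (adjusted p = 3.24e-08). Tfap2c stood at 25.1 and 31.9 CPM against 47 and 46.1, and 72.7 and 74.5 CPM, a log2 difference of -1.04 ± 0.11 (8.11e-07). Sox3 stood at 0.601 and 1.04 CPM against 2.4 and 2.19, and 1.55 and 2.45 CPM, a log2 difference of -1.35 ± 0.27 (0.000715). The labelled TRIM24-KO libraries were the lowest of the 6 compared for each gene. Eomes, Mixl1, Gata2, Ascl2, Sox1 and Nes were not called against the mean of both lines. Eomes was lower against line 1 alone (-0.90, adjusted p = 0.00025). Against line 2 alone Sox1 was higher (1.08, 0.0107) and Nes lower (-0.60, 0.00151). Eomes, Sox1 and Nes each had the opposite sign against the other line and were not called there.

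TRIM33-KO without DOX was compared with the same WT lines, and the number of members called depended on which line was the reference. Against the mean of both lines 2 members were higher and 5 lower (12.8% and 11.1% of all genes). Against line 1 alone 4 were higher and 9 lower (20.2% and 20.6%). Against line 2 alone edgeR called 0 (1.52% of all genes), and 5 of 27 members had an unadjusted p under 0.05. With TRIM33-KO without DOX replicate 2 left out, 4 members were called against the mean of both lines (11.1% of all genes). Col4a1 stood at 22.5 and 20.2 CPM in TRIM33-KO and Col4a2 at 5.76 and 6.72 CPM, below all 4 WT pLV2 libraries without DOX. Col4a1 was lower by a log2 difference of -0.77 ± 0.10 (adjusted p = 4.63e-05) and Col4a2 by -1.0 ± 0.16 (0.000221), and against line 2 alone by -0.46 (0.0567) and -0.62 (0.11). Krt7 stood at 0.845 and 0.816 CPM, against 2.95 and 3.73 CPM in line 1 and 1.11 and 3.13 CPM in line 2, a log2 difference of -1.65 ± 0.35 (0.00285; 0.155 against line 2 alone). Nes stood at 24.6 and 21.2 CPM, above 9.74 and 8.49 CPM in line 1 and 15.6 and 16.7 CPM in line 2, a log2 difference of 0.92 ± 0.11 (2.2e-05; 0.059 against line 2 alone). Against the mean of both lines, 5 of the 10 fibroblast markers tested were higher and 1 lower in TRIM33-KO. Of the 18 embryonic stem cell markers 2 were higher and 8 lower. Their part in these differences was not tested.

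Eomes, Sparc and Gata2 were called between TRIM33-KO and the mean of both WT lines but not against line 2 alone. Eomes (7.5 and 6.63 CPM) was lower by a log2 difference of -0.54 (adjusted p = 0.00895), and against line 2 alone the value was 0.084 (0.921). Sparc (241 and 261 CPM) was higher by 0.24 (0.00698), and against line 2 alone the value was -0.043 (0.89). Gata2 (0.398 and 0.336 CPM) was lower by -1.36 (0.0172) and by -0.98 against line 2 alone (0.413). The Eomes call was lost without line 1 replicate 2 (0.0526) or TRIM33-KO replicate 2 (0.147), and the Sparc call without TRIM33-KO replicate 2 (0.0955). The Gata2 call was lost without line 1 replicate 1 (0.0853), line 2 replicate 2 (0.0503), TRIM33-KO replicate 1 (0.0772) or TRIM33-KO replicate 2 (0.151).

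The WT pLV2 lines themselves differed without DOX. In line 2 against line 1, 4 members were called higher and 7 lower, against 18.9% and 19.3% of all genes. Eomes stood at 6.59 and 6.74 CPM in line 2 and 13.6 and 18.1 CPM in line 1, a log2 difference of -1.25 ± 0.16 (adjusted p = 9.83e-06). Krt8 (log2 difference -1.20), Krt18 (-0.70), Col4a1 (-0.62), Col4a2 (-0.76), Sox7 (-1.02) and Sox1 (-1.29) were the other members lower in line 2. Dab2 (1.83), Nes (0.82), Tfap2c (0.66) and Sparc (0.57) were higher. Sparc stood at 267 and 250 CPM in line 2 and 176 and 173 CPM in line 1, beside fibroblast marker sums of 62.51 to 68.77 CPM in line 2 and 42.02 to 43.36 CPM in line 1, and stem cell marker sums of 6325 to 6488 CPM in line 2 and 7679 to 7815 CPM in line 1. Of the 18 stem cell markers 3 were higher and 12 lower in line 2, of the 10 fibroblast markers 5 were higher and 1 lower, and of the 18 2-cell-like markers 4 were lower. Their part in these differences was not tested. The calls of Sox7 (adjusted p = 0.248), Krt18 (0.0711) and Sox1 (0.0519) were lost without line 2 replicate 2; those of Krt18 and Sox7 were also lost without line 1 replicate 1 (0.114 and 0.19), and that of Sox7 without line 1 replicate 2 (0.0794), by DESeq2 (0.0839) and with only the compared groups (0.0532).

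Between labelled DUXBL-KO and WT without DOX edgeR called 0 members of 26 (0.0388% of all genes). DESeq2 also called 0, and 3 members had an unadjusted edgeR p under 0.05. With the replicate number as a block edgeR called Tfap2c and Krt8, and with no filter on low counts also Sox7 and Lamb1. The shares of all genes under these alternatives are given in the last section. Krt8 stood at 10.4 and 13.8 CPM in labelled DUXBL-KO and 4.89 and 6.92 CPM in WT, without overlap. Sox7 stood at 2.64 and 10.9 CPM in labelled DUXBL-KO and 2.95 and 2.73 CPM in WT, so that 1 library stood above the others. The difference in DOX response between these lines was called for 0 members by edgeR (0% of all genes) and by DESeq2, and 0 had an unadjusted p under 0.05.

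Other genes of the same lineages were read from lists of 20 to 22 genes each. Among 20 other streak and mesoderm genes, 14 were tested, and 2 rose and 1 fell with DOX in WT pLV2 line 1, 2 rose and 3 fell in line 2, 2 and 1 in labelled TRIM24-KO and 2 and 4 in TRIM33-KO. Snai1, a repressor active in the epithelial to mesenchymal transition, rose by a log2 fold change of 1.92 ± 0.23 in line 1 (adjusted p = 7.23e-06), 3.97 ± 0.27 in line 2 (4.8e-09), 2.88 ± 0.21 in labelled TRIM24-KO (1.63e-08) and 3.84 ± 0.26 in TRIM33-KO (2.82e-09). Axin2, a feedback inhibitor of Wnt signalling, rose by 0.68, 0.68, 0.46 and 0.75 in the same lines. In labelled DUXBL-KO Snai1 also rose, by 2.38 ± 0.46 (adjusted p = 0.0284). Tbx3, a T-box factor, fell in line 2, labelled TRIM24-KO and TRIM33-KO (-0.27, -0.54 and -0.44), Foxh1 fell in line 1 (-0.37) and the Nodal inhibitor Lefty1 in TRIM33-KO (-0.91). Tbx3 is also on the list of embryonic stem cell markers, so its falls are counted in both lists. Sp5, counted among the falls in line 2 and TRIM33-KO, did not meet the filter once the libraries without DOX of either line were left out. Among 22 other endoderm genes, 19 were tested in the pLV2 set, and 1 or 2 were called higher and 1 to 3 lower per line. P4ha2, a collagen prolyl hydroxylase, rose in all 6 lines, from a mean of 9.79 to 110 CPM in WT and from 25.1 to 493 CPM in TRIM33-KO. Serpinh1 fell in line 1 and TRIM33-KO (-0.49 and -0.44), Nid1 in line 2 and TRIM33-KO (-0.25 and -0.30) and Amn in line 2 (-1.72). In labelled TRIM24-KO Fst and Hnf4a fell (-1.11 and -0.86) and Lrp2 rose (0.47). Among 22 other neural genes, 13 were tested in the pLV2 set, and 3, 5, 1 and 6 fell and at most 2 rose in line 1, line 2, labelled TRIM24-KO and TRIM33-KO. Otx2, a homeodomain factor of epiblast and forebrain, fell in all 4, by 1.10, 1.06, 0.97 and 1.5 on the log2 scale, while the Notch ligand Dll1 rose in line 1, labelled TRIM24-KO and TRIM33-KO (1.34, 2.04 and 2.58). Among 22 other trophoblast genes, 17 were tested in the pLV2 set, with at most 2 higher and 1 to 4 lower per line. Ets2, an ETS factor of trophoblast stem cells, fell in all 4, by 0.48, 0.64, 0.32 and 0.90. Tead1, a TEA-domain factor, rose in line 1, labelled TRIM24-KO and TRIM33-KO (0.31, 0.45 and 0.21), Cdh3 rose in labelled TRIM24-KO (0.54) and Wnt7b in TRIM33-KO (1.48), while the keratin gene Krt19 fell in line 2 and TRIM33-KO (-1.5 and -1.54) and Phlda2 in line 1 (-0.36). These counts stand beside the shares of all genes called in each line, given above.

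The same lists without DOX gave, in labelled TRIM24-KO against both WT pLV2 lines, 9 other endoderm genes higher and 5 lower of 19, 9 other trophoblast genes higher and 2 lower of 17, 6 other streak and mesoderm genes higher and 4 lower of 14, and 4 other neural genes higher and 5 lower of 13, beside 20.9% of all genes higher and 22.5% lower. Among the streak and mesoderm genes higher, Evx1 and Wnt3a met the filter only with the labelled TRIM24-KO libraries. Without these genes 4 were higher. Cubn, an endocytic receptor of visceral endoderm, stood at a mean of 17.1 CPM against 0.591 CPM, a log2 difference of 4.87 ± 0.23 (adjusted p = 8.56e-11). Rhox5, a homeobox gene of extraembryonic tissue, stood at 27.2 against 3.83 CPM (2.84 ± 0.24, 6e-08). Id2, an inhibitor of helix-loop-helix factors, stood at 23.7 against 5.78 CPM (2.14 ± 0.19, 1.03e-07). Otx2 was lower, at 4.12 against 44.1 CPM (-3.15 ± 0.16, 1.5e-10), as were Olig2 (-1.93) and the fibronectin gene Fn1 (-1.26). Of the same lists, the neural genes Sox11 (0.82) and Sox21 (1.41) were higher, and the trophoblast genes Cdh3 (-1.13) and Esx1 (-1.99) were lower. Peg10, an imprinted gene of the placenta, differed by 5.32 from the mean of the lines, but line 2 itself was 7.26 above line 1.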

How the data were processed

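Whole-number counts per gene and per repeat subfamily were deposited by the authors, 1 table per library. Per the submitters' processing notes, bcl2fastq 2.20.0, cutadapt 1.18, STAR 2.7.6a and mm10 were used; the counting tool and its use of strand are not given in the sources used here. Per the labels' protocols, a directional kit with rRNA depletion and paired 75 bp reads was used. Groups follow the titles. Of 55487 gene identifiers, 54435 matched GENCODE M21 (GRCm38) with version, 792 without it and 260 not at all. The 1146 repeat subfamilies stayed out of library sizes and tests.

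From the deposited counts, CPM used TMM effective library sizes, and RPKM divided CPM by exon-union length. The sets were fitted apart in edgeR 4.0.16 (R 4.3.3): filterByExpr by group, 1 mean per group, glmQLFit and glmQLFTest, 2-sided, Benjamini-Hochberg over all genes tested (18060 and 18079) in each of 14 comparisons, threshold 0.05. Calls, and the adjusted p values in the text, are edgeR's unless DESeq2 1.42.0 is named. The scripts were tested on simulated data. Counting intervals are exact (Clopper-Pearson, 95%) and cover counting error only. No replicate pair had counts that agreed within sampling noise (chi-square per degree of freedom 3.13 to 292).

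Members called in any comparison and reaching a group mean of 1 CPM were described in full; of each other list, at most 2 genes per direction and comparison were eligible for naming, those with the smallest adjusted p among called genes without overlap. Members and lists were chosen with earlier results of these data known. Alternatives were median-of-ratios scaling (RLE), no filter on low counts, the replicate number as a block, DESeq2, only the compared groups, each WT pLV2 line alone, each library left out and, chosen after seeing the data, library sizes without CT010467.1. Genes that overlap others on the opposite strand (Eomes, Elf3, Tead4, Krt8, Krt7, Dab2, Pdgfra, Gata6, Gata3, Sox17, Afp, Pax6, Col4a1, Col4a2) may share reads with them.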

Additional observations from a re-analysis of the deposited data

Results flagged for a closer look

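The Elf3 response to DOX was called different between each TRIM knockout and the WT pLV2 lines by a test of the difference itself. In labelled TRIM24-KO it was 0.56 ± 0.09 above that of the WT pLV2 lines on the log2 scale (edgeR adjusted p = 0.0116), and in TRIM33-KO it was -0.50 ± 0.09 relative to them (0.0154). Elf3 stood at 38.1 and 38.9 CPM without and 36.8 and 36.3 CPM with DOX in the former, which was not called, and fell from 72.6 and 70.1 to 32.7 and 31.8 CPM in the latter. The WT lines are shared by both comparisons. The first difference was 0.33 (0.413) against line 1 alone and the second -0.27 (1) against line 2 alone. The response of WT pLV2 line 2 was itself -0.48 relative to line 1 (adjusted p = 0.0766), which was not called. Both calls were lost on leaving out any 1 library of the knockout concerned (adjusted p from 0.0553 to 0.138).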

How the results depend on the processing

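Of 374 member results tested, 62 were called, and 37 of these were called under every alternative; over 4629 alternative values, 4155 kept their side and direction, 339 (of 159 results) were uncalled in both and had the other sign, 57 became called, 76 lost their call and 2 called values reversed. The 62 include Elf5, Gata3 and Hand1 in labelled TRIM24-KO without DOX, and the 37 include Gata3 and Hand1. Those genes met the filter only with the high libraries, so their calls are no support. The cause of a change was not tested. The called values that reversed were Eomes (0.084) and Sparc (-0.043) in TRIM33-KO against line 2 alone. Without the filter on low counts, the members called, each beside the share of all genes called, were 2 with DOX in WT (3.22%), 2 in labelled DUXBL-KO (4.47%), 7 in labelled TRIM24-KO (8.86%), 4 for labelled DUXBL-KO against WT (1.7%, up from 0.0388% with the filter), and 2, 2 and 1 for the differences in response of labelled TRIM24-KO (0.621%), TRIM33-KO (0.971%) and line 2 against line 1 (0.685%). With only the compared groups, DOX gave 0 in WT (0.00591% of all genes) and 7 in WT pLV2 line 1 (26.5%), and DESeq2 gave 1 in labelled DUXBL-KO (5.7%). TRIM33-KO without DOX gave 13 against line 1 alone and 0 against line 2 alone (7). The differences in response of labelled TRIM24-KO against line 1 alone and of TRIM33-KO against line 2 alone gave 0. Against the mean of both lines these differences were called for 0.437% and 0.575% of all genes. With 1 library left out, the members called with DOX ranged from 0 to 1 in WT (0.0105% to 3.36% of all genes), 0 to 0 in labelled DUXBL-KO (2.62% to 2.98%), 3 to 3 in line 1 (8.32% to 10.3%), 5 to 6 in line 2 (15.5% to 21.3%), 3 to 7 in labelled TRIM24-KO (10.2% to 14%; 7 without its replicate 1 with DOX) and 5 to 6 in TRIM33-KO (23.3% to 27.3%). Without DOX they ranged from 0 to 0 for labelled DUXBL-KO (0% to 0%), 18 to 21 for labelled TRIM24-KO (29% to 39.6%; Elf5, Gata3 and Hand1 are not left out of these counts), 4 to 8 for TRIM33-KO (11.1% to 24.1%) and 9 to 12 for line 2 against line 1 (25.1% to 33.5%). For the differences in response they ranged from 0 to 0 (0% to 0%), 0 to 2 (0.106% to 0.386%), 0 to 1 (0.149% to 0.735%) and 0 to 0 (0.0476% to 0.407%) in the same order. A group left with 1 library is assumed to vary like the others.

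With the replicate block, 2 members were called with DOX in labelled DUXBL-KO (Sox3, Tfap2c; 8.83% of all genes, 4.91% with no block), 2 for labelled DUXBL-KO against WT (Tfap2c, Krt8; 2.44%, 0.0388% with no block) and 6 in line 1 (17%); the numbers of the titles are not said to pair samples, and deviations of same-numbered libraries correlated by 0.39 and 0.55 in WT and labelled DUXBL-KO and by 0.01 to 0.19 in the pLV2 lines. Library sizes without CT010467.1 moved no count of members called. With median-of-ratios scaling the share of called genes that were higher with DOX went from 47.6% to 59.6% in line 2 and from 45% to 56.7% in TRIM33-KO. With 2 libraries a group, precision is low for scarce RNA: 11 of 36 members stayed under 1 CPM in every group mean, and of these Elf5 was called in 1 comparison, where it met the filter only with the high libraries.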
